A study of Homo sapiens with 12 samples.

Results

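The transcripts described here were 8 long noncoding RNAs that carry small nucleolar RNAs (snoRNAs) within their genes, GAS5, SNHG1, SNHG5, SNHG8, SNHG12, SNHG15, ZFAS1 and EPB41L4A-AS1, together with the nuclear-retained long noncoding RNAs NEAT1 and MALAT1. They were taken by gene name from a table of counts for 57500 genes, in which each of the 10 names had 1 row, and all 10 passed the filter on low counts that left 27029 genes for testing. The study depleted PACT, a double-stranded RNA binding protein encoded by PRKRA, with Cas9 and the guide sgPACT-2 in HCC1806 and MDA-MB-468, both established lines of triple-negative breast cancer. Control cells carried the guide sgC1 in HCC1806 and sgNTA in MDA-MB-468, so the 4 groups, of 3 libraries each, were HCC1806 sgC1, HCC1806 sgPACT-2, MDA-MB-468 sgNTA and MDA-MB-468 sgPACT-2. All 12 libraries were made from total RNA depleted of ribosomal RNA. Only 1 guide against PRKRA was used, the labels do not say whether the cells were clones or pools, and nothing in them says whether the 3 libraries of a group came from separate cultures, so p-values measure the spread between these libraries, which may be technical.

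A snoRNA host gene makes a spliced transcript whose introns are trimmed to snoRNAs, the guide RNAs for chemical modification of ribosomal and spliceosomal RNA. The spliced exons of several hosts reach the cytoplasm, are engaged by ribosomes over short open reading frames that end early, and are destroyed by nonsense-mediated decay, a process that requires translation. GAS5 was named for its accumulation in growth-arrested cells, and blocking translation is known to raise it. PACT is known for its contacts with the kinase PKR, which lowers translation by phosphorylating eIF2alpha when active, and the title of the study says that PACT holds PKR activation down. NEAT1 and MALAT1 stay in the nucleus, NEAT1 as the scaffold of paraspeckles and MALAT1 in nuclear speckles, and serve here as transcripts outside translation-dependent decay.

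The starts of 5 of these genes are shown because many snoRNA hosts are known as terminal oligopyrimidine (TOP) genes, whose transcripts begin within a run of pyrimidines. RefSeq entries (GRCh38.p14) were found for 8 of the 10 names. Each line gives 60 bases of the strand that reads as the RNA, 40 before the RefSeq start and 20 from it on. Capitals mark the longest run of C and T within 15 bases of the start and, where present, a TATAA between 40 and 20 bases before it.
GAS5, chr1:173869026-173869085, minus strand: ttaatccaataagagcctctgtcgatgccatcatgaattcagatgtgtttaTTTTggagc
SNHG5, chr6:85678714-85678773, minus strand: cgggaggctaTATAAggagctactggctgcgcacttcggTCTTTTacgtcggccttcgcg
SNHG12, chr1:28581854-28581913, minus strand: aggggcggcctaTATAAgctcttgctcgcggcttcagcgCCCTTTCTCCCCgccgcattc
ZFAS1, chr20:49278602-49278661, plus strand: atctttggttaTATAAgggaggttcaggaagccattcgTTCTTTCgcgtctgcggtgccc
MALAT1, chr11:65497698-65497757, plus strand: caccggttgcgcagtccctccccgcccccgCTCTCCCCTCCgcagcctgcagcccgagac
The run was 12 bases long at SNHG12, a length reached by 3.23% of 35116 RefSeq promoters, and 11 at this MALAT1 entry, reached by 4.49%. At a second MALAT1 entry the run was 3 bases, reached by 89.8%, so the MALAT1 entries differed. It was 7 bases at SNHG1 and ZFAS1 (20.2% of promoters reach that), 6 at SNHG5 and SNHG8 (31.1%) and 4 at GAS5 and EPB41L4A-AS1 (70.7%). TATAA lay in that window at SNHG5, SNHG8, SNHG12 and ZFAS1 and in the second MALAT1 entry. Of all promoters, 3.91% had it on the strand that reads as the RNA and 1.73% on the other strand. The RefSeq start lay 163 bases from the GENCODE 29 start at GAS5, 1259 bases at SNHG12 and 464 bases at ZFAS1, so these letters describe the RefSeq start only.

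Counts summed to between 18640633 and 24704877 per library in HCC1806 and between 34581754 and 44790741 in MDA-MB-468, and mitochondrial genes took 11.6% to 15.0% and 6.31% to 8.90% of them. PRKRA stood at 72.1 to 82.6 CPM in HCC1806 sgC1 and at 36.1 to 37.5 with sgPACT-2, which is -1.07 on the log2 scale (adjusted p = 1.7e-05, edgeR). CPM is a gene's count relative to the size of its library, with sizes adjusted by the TMM method. In MDA-MB-468 it stood at 41.1 to 46.9 with sgNTA and 35.5 to 41.6 with sgPACT-2, a difference of -0.20 (log2) that did not pass the test (adjusted p = 0.958, edgeR). A guide that shifts the reading frame need not lower the mRNA, so the count of PRKRA reads is a limited check of depletion. The progesterone receptor gene PGR reached at most 0.300 CPM and the T cell marker CD3E at most 0.025. ESR1, the oestrogen receptor gene, was low but not at 0 (6.27 to 24.2 CPM), and ERBB2 was at 124 to 209. The fibroblast marker COL1A1 was at 28.2 to 48.3 CPM in HCC1806 (16.8 to 21.5 for the other line), with COL1A2 at most at 0.625. The basal keratin KRT17 was at 17.0 to 21.2 CPM in HCC1806 with sgC1 and 25.8 to 31.4 with sgPACT-2 (571 to 811 for the other line). KRT17 was thus higher with sgPACT-2 without overlap, as in 8.51% of all genes, and did not pass (log2 0.51, adjusted p = 0.0809, edgeR). Of 17 marker genes tested, 3 fell after depletion in HCC1806 (edgeR), where 1.32% of all genes fell. They were KRT5, another basal keratin (616 to 936 CPM with sgC1, 321 to 526 with sgPACT-2, adjusted p = 0.0106, edgeR), and the epithelial genes EPCAM (175 to 232 and 108 to 159, 0.0335) and CDH1 (395 to 421 and 296 to 353, 0.0373). None of the 17 was called in MDA-MB-468 (0.17% of all genes), and the part of this shift in the values below was not tested.

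After PACT depletion none of the 8 snoRNA hosts, nor NEAT1 or MALAT1, changed in either line by the test used (edgeR quasi-likelihood, Benjamini-Hochberg adjusted p under 0.05 over all 27029 genes). In HCC1806 the count was 0 of 10, where 2.49% of all genes were called, and 2 of 10 had an unadjusted p under 0.05 (14.5% of all genes). Those 2 were NEAT1, 1.36-fold lower, and SNHG5, 1.27-fold higher, also the only 2 of the 10 whose control and depleted libraries did not overlap in that line (16.7% of all genes), and no other of the 10 had a value as far from 0 in either line. In MDA-MB-468 the count was 0 of 10 against 0.17% of all genes, with 0 of 10 at an unadjusted p under 0.05 (5.27% of all genes). DESeq2 likewise called 0 of 10 in each line, where it called 4.61% and 0.418% of all genes.

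**Figure D1:**
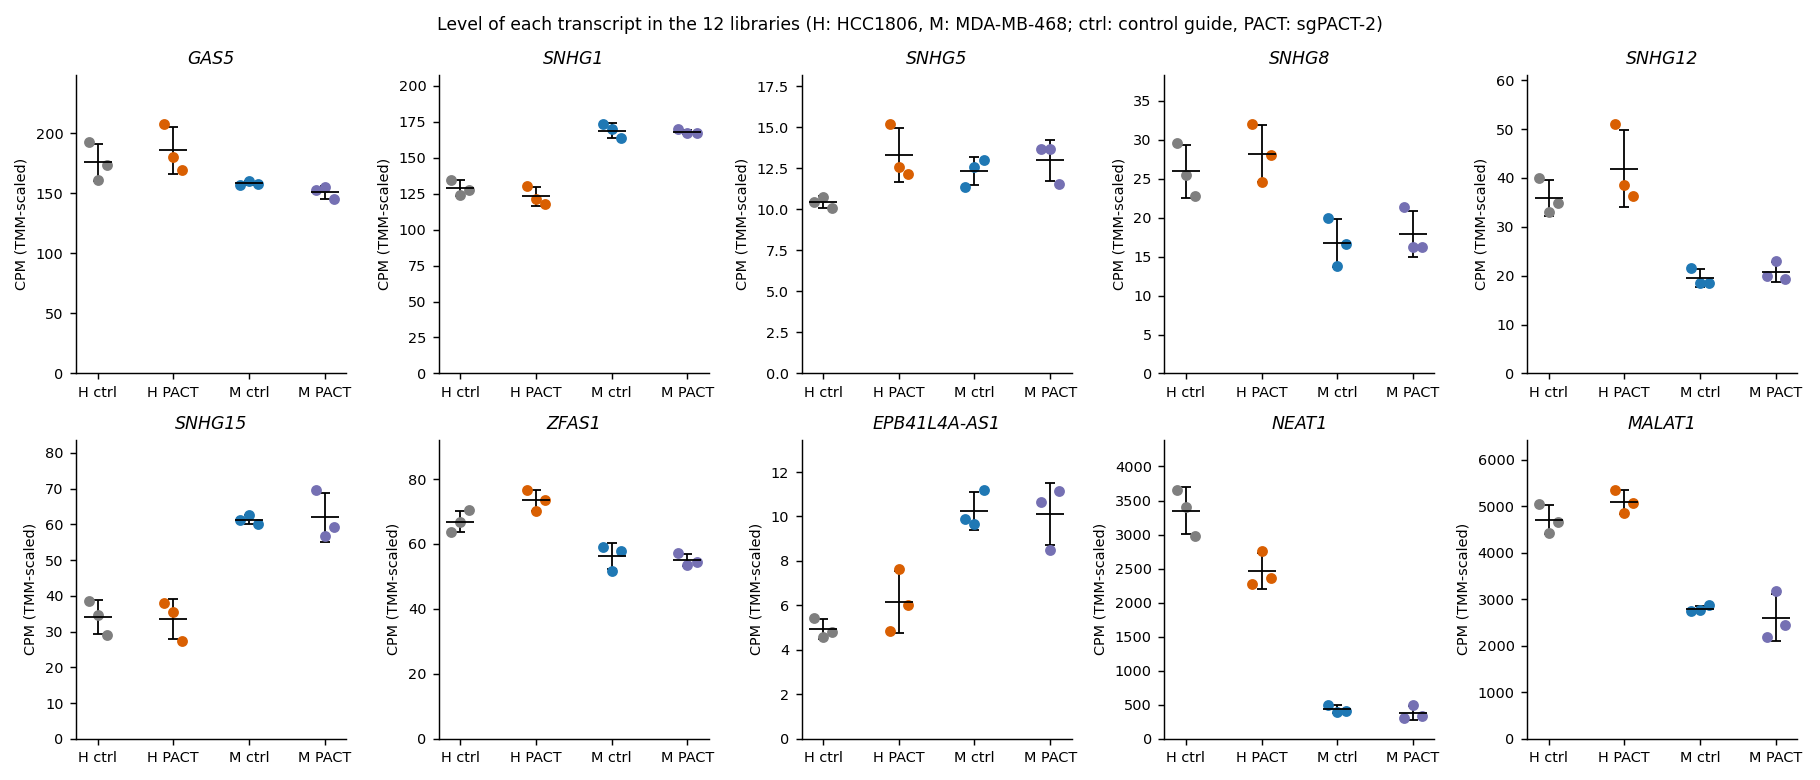
CPM (vertical axes, TMM-scaled, from 0) of the 10 transcripts in the 12 libraries, with each point a library and bars the mean and SD of 3 libraries. NEAT1 in HCC1806 was between 2979.6 and 3659 CPM with sgC1 and between 2278 and 2762 with sgPACT-2, and the MDA-MB-468 libraries lay between 307 and 500.2 CPM.

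GAS5 (ENSG00000234741, chr1:173863900-173868882, minus strand) is the host best known for growth arrest and decay coupled to translation. It was at 192, 161 and 174 CPM in the sgC1 libraries of HCC1806 and at 207, 180.1 and 169 with sgPACT-2. In MDA-MB-468 it was at 157, 160.0 and 158 with sgNTA and at 153, 155 and 145 with sgPACT-2. The groups overlapped in HCC1806, and in MDA-MB-468 every depleted library lay just below every control library, as the libraries did for 13.1% of all genes in either direction. On the log2 scale the depleted cells differed by 0.079 ± 0.099 (SE, adjusted p = 0.823) and by -0.070 ± 0.099 (adjusted p = 1) in edgeR. The 95% intervals ran from -0.13 to 0.29 in HCC1806 and from -0.28 to 0.14 in MDA-MB-468, and without depleted replicate 1 the HCC1806 value was -0.0096.

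SNHG1 (chr11:62851988-62855914, minus strand) holds a series of box C/D snoRNAs and shares a divergent start region with SLC3A2. Its CPM in HCC1806 were 135, 124 and 127 with sgC1 and 129.98, 121 and 118 with sgPACT-2. In MDA-MB-468 they were 173, 169.9 and 163 with sgNTA and 169.7, 167 and 167 with sgPACT-2. The groups overlapped in both lines, and the log2 fold changes were -0.066 ± 0.087 (SE) and -0.0071 ± 0.087. Their 95% intervals lay between -0.25 and 0.18, which made SNHG1 the most tightly bounded of the 10. Scaled by total counts only, the HCC1806 value was 0.057, but relative to the median of genes averaging 50 or more counts it was -0.040 under either scaling.

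SNHG5 (chr6:85660950-85678748, minus strand), the host of the U50 snoRNAs, had the largest positive difference among the hosts. It was at 10.5, 10.8 and 10.1 CPM with sgC1 and at 15.2, 12.6 and 12.2 CPM with sgPACT-2 in HCC1806. In MDA-MB-468 the values were 11.4, 12.6 and 13.0 with sgNTA and 13.7, 13.7 and 11.6 with sgPACT-2. All 3 depleted HCC1806 libraries were above all 3 controls, as in 8.51% of all genes for that direction, and the MDA-MB-468 groups overlapped. The HCC1806 difference was 0.35 ± 0.14 on the log2 scale (SE), with an unadjusted p of 0.0226 that did not pass once adjusted (0.235, edgeR). Over the 12 fits that each left out 1 library it lay between 0.24 and 0.41, with adjusted p between 0.22 and 0.449, and in MDA-MB-468 it was 0.075 ± 0.13.

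SNHG8, SNHG12 and SNHG15 are spliced hosts of 1 or a few snoRNAs each. SNHG8 (chr4:118278709-118279823, plus strand) averaged 25.9 ± 3.4 CPM (SD, n = 3) with sgC1 and 28.2 ± 3.7 with sgPACT-2 in HCC1806, and 16.8 ± 3.1 and 17.9 ± 2.9 in MDA-MB-468. SNHG12 (chr1:28578538-28583132, minus strand) averaged 35.9 ± 3.6 and 41.9 ± 7.9 CPM in HCC1806, and 19.5 ± 1.8 and 20.8 ± 2.0 in MDA-MB-468. For these hosts the depleted and control libraries overlapped in both lines. SNHG15 (chr7:44983023-44986961, minus strand) averaged 34.1 ± 4.8 and 33.5 ± 5.6 CPM in HCC1806, and 61.3 ± 1.3 and 61.9 ± 6.8 in MDA-MB-468, also with overlap. Log2 fold changes of the 3 hosts ran from -0.029 to 0.22 in HCC1806 and from 0.015 to 0.095 in MDA-MB-468, and SNHG12 had the smallest adjusted p (0.512 in HCC1806, edgeR).

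ZFAS1 (chr20:49278178-49295738, plus strand), host of the SNORD12 snoRNAs, averaged 66.9 ± 3.3 CPM with sgC1 and 73.5 ± 3.2 with sgPACT-2 in HCC1806, and 56.3 ± 3.9 and 55.1 ± 1.9 in MDA-MB-468. EPB41L4A-AS1 (chr5:112160526-112164276, plus strand), host of SNORA13, was the scarcest of the 10, at 4.92 ± 0.44 and 6.16 ± 1.39 CPM in HCC1806 and 10.2 ± 0.8 and 10.1 ± 1.4 in MDA-MB-468. Both had overlapping groups in each line. Their log2 fold changes in HCC1806 were 0.14 ± 0.094 (SE) and 0.32 ± 0.19, and in MDA-MB-468 -0.031 ± 0.094 and -0.020 ± 0.17. With 115 counts per sgC1 library on average, EPB41L4A-AS1 had the widest interval among the hosts, from -0.07 to 0.72 in HCC1806. Its fold change in MDA-MB-468 turned positive without depleted replicate 2 or control replicate 3.

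Among the hosts, 6 of 8 had positive log2 fold changes in HCC1806, with a median of 0.13, against a median of -0.03 over the 15918 genes averaging 50 or more counts. In MDA-MB-468, 4 of 8 were positive and the median was 0.0041, against -0.018 over those genes. Scaling by total counts only moved the HCC1806 median of those genes from -0.03 to 0.10 and the hosts with it. Relative to that median GAS5 was at 0.10 and SNHG5 at 0.37 under either scaling. In MDA-MB-468 the 95% intervals of all 8 hosts lay between -0.39 and 0.43. Replicate 1 of HCC1806 held the highest value of its group for 6 hosts with sgC1 and for 7 with sgPACT-2, and 6 of the 8 hosts varied by over 10% (coefficient of variation) among the depleted libraries.

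NEAT1 (ENSG00000245532, chr11:65422774-65445540, plus strand), the scaffold of paraspeckles, stood at 3659, 3411 and 2979.6 CPM in HCC1806 with sgC1 and at 2278, 2762 and 2357 with sgPACT-2. Every depleted library was below every control library, as in 8.17% of all genes for that direction. The fitted difference was -0.44 ± 0.15 on the log2 scale (SE, 95% interval -0.76 to -0.12), with an unadjusted p of 0.00973 and an adjusted p of 0.155 in edgeR. Same-numbered HCC1806 libraries deviated together (r of 0.48, 0.29 and 0.15), although control 2 with depleted 3 gave 0.35, and with the replicate as a block the value was -0.44 and passed (adjusted p = 0.0437, edgeR), in a fit that called 7.2% of all genes. It also passed without the filter on low counts (adjusted p = 0.00201, 3.04% of genes), and in none of the 12 fits that left out 1 library (0.063 to 0.391), nor in DESeq2 (0.0685) or in HCC1806 alone (0.25).

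In MDA-MB-468 NEAT1 stood at 500.2, 396 and 412 CPM with sgNTA and at 307, 492 and 332 with sgPACT-2. Depleted replicate 2 was just below the highest control and above the other two controls, so the groups overlapped. The fitted difference was -0.21 ± 0.15 (log2, SE, adjusted p = 1, edgeR). Leaving that library out gave -0.45 (adjusted p = 0.443), and leaving out depleted replicate 1 gave -0.085, control replicate 1 -0.099 and depleted replicate 3 -0.13. The difference between the lines, MDA-MB-468 minus HCC1806, was 0.23 ± 0.21 (adjusted p = 0.835), and without depleted replicate 2 of MDA-MB-468 it was -0.0043. A difference of NEAT1's response between the lines was therefore not detected.

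MALAT1 (ENSG00000251562, chr11:65497688-65506516, plus strand), a long nuclear-speckle RNA, was the most abundant of the 10 in every library. It stood at 5040, 4430 and 4658 CPM in HCC1806 with sgC1 and at 5355, 4846 and 5059 with sgPACT-2. In MDA-MB-468 it was at 2754, 2767 and 2868 with sgNTA and at 2196, 3173 and 2450 with sgPACT-2. The groups overlapped in both lines, and depleted replicate 2 of MDA-MB-468 was the highest of its line for MALAT1 and the second highest for NEAT1. The depleted cells differed by 0.11 ± 0.11 (log2, SE, adjusted p = 0.758, edgeR) in HCC1806 and by -0.10 ± 0.11 (adjusted p = 1) in MDA-MB-468, a value that was 0.0053 without depleted replicate 1.

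**Figure D2:**
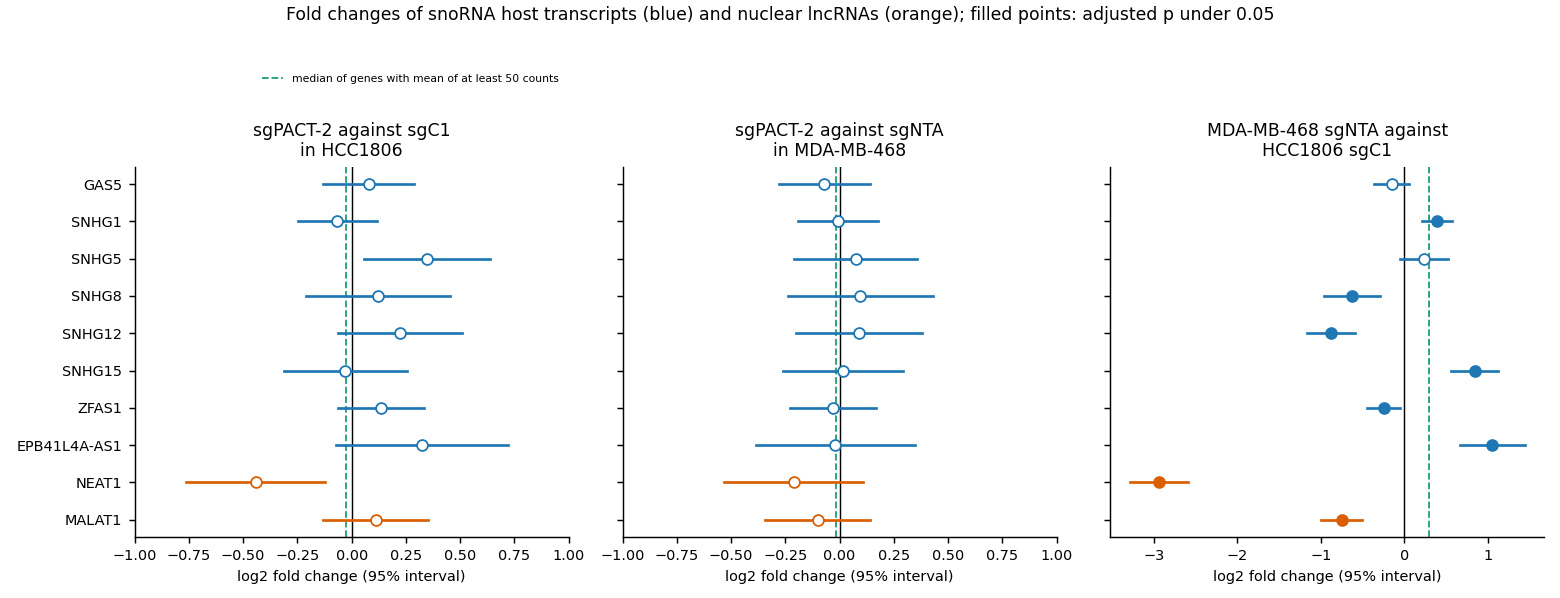
Log2 fold changes with 95% intervals (horizontal axes) of the 8 hosts (blue) and of NEAT1 and MALAT1 (orange) for depletion in each line and between the lines under control guides, with filled points for adjusted p under 0.05 and the dashed line at the median of genes averaging 50 or more counts. No point is filled in the panels for depletion, where NEAT1 in HCC1806 lies at -0.44, and 8 of 10 are filled between the lines.

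For none of the 10 did the depletion effect pass a test of difference between the lines (0 of 10 called by the interaction term in edgeR, 0.122% of all genes). An unadjusted p under 0.05 was reached by 0 of 10 (8.39% of all genes). The differences of the log2 fold changes, MDA-MB-468 minus HCC1806, ran from -0.34 at EPB41L4A-AS1 to 0.059 at SNHG1 among the hosts. DESeq2 also called 0 of 10 (0.659% of all genes). The comparison has wide intervals, from -0.88 to 0.20 at EPB41L4A-AS1 and from -0.22 to 0.68 at NEAT1.

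Setting hosts against nuclear transcripts within each library removes the scaling between libraries. The mean log2 CPM of the 8 hosts was 5.15 ± 0.09 and 5.28 ± 0.10 (SD, n = 3) in HCC1806 and 5.22 ± 0.05 and 5.24 ± 0.07 in MDA-MB-468. Minus the mean of NEAT1 and MALAT1 it was -6.82, -6.82 and -6.78 in HCC1806 with sgC1 and -6.38, -6.56 and -6.57 with sgPACT-2, without overlap. In MDA-MB-468 it was -4.93, -4.86 and -4.85 with sgNTA and -4.36, -5.08 and -4.62 with sgPACT-2, with overlap. These scores over chosen transcripts are given as a description, without a test.

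The reference used decides that picture. Against NEAT1 alone the hosts stood at -6.56 ± 0.09 and -5.98 ± 0.20 (SD, n = 3) in HCC1806, and against MALAT1 alone at -7.05 ± 0.05 and -7.03 ± 0.08. NEAT1 minus MALAT1 was -0.46, -0.38 and -0.64 in HCC1806 with sgC1 and -1.23, -0.81 and -1.10 with sgPACT-2, without overlap. In MDA-MB-468 it was -2.46, -2.80 and -2.80 with sgNTA and -2.84, -2.69 and -2.88 with sgPACT-2, with overlap.

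**Figure D3:**
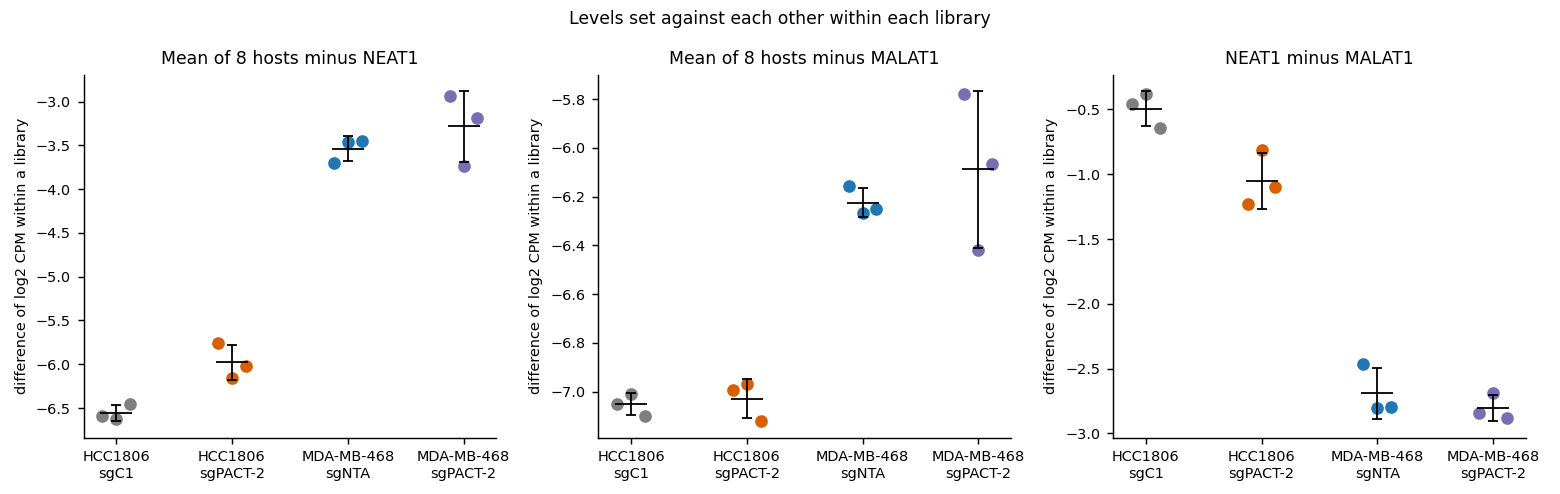
Differences of log2 CPM within each library (vertical axes) for the mean of the 8 hosts minus NEAT1, the same mean minus MALAT1, and NEAT1 minus MALAT1, with points for libraries and bars for the mean and SD of 3. In HCC1806 the groups separate in the panels that hold NEAT1 and overlap in the panel of hosts minus MALAT1.

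More of the 10 transcripts were called between the lines than with depletion. Under control guides 8 of 10 were called in edgeR, where 74.2% of all genes were called, 3 higher in MDA-MB-468 (34.2% of all genes) and 5 lower (40.1%), and 10 of 10 had groups that did not overlap (77.7% of all genes). NEAT1 was 7.68-fold lower in MDA-MB-468 than in HCC1806 (-2.94 ± 0.16, log2 scale, SE, adjusted p = 3.17e-11), and MALAT1 was 1.68-fold lower (-0.75 ± 0.12, adjusted p = 1.53e-05). The hosts split, with EPB41L4A-AS1 (1.06 ± 0.18), SNHG15 (0.84 ± 0.13) and SNHG1 (0.39 ± 0.09) higher in MDA-MB-468 and SNHG12 (-0.88 ± 0.14), SNHG8 (-0.63 ± 0.16) and ZFAS1 (-0.25 ± 0.09) lower. GAS5 (-0.15, adjusted p = 0.179) and SNHG5 (0.24, adjusted p = 0.122) did not pass. The lines received different control guides, so line and control guide cannot be told apart here.

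The scaling matters for the small differences between lines, because the median of the 15918 better-counted genes was 0.30 with TMM and 0.05 with total counts only. Relative to that median SNHG1 stood at 0.09 and SNHG5 at -0.06 under either scaling, and NEAT1 at -3.24 with TMM. SNHG1 did not pass with total counts only (0.14, adjusted p = 0.101, edgeR) and GAS5 did (-0.40, adjusted p = 0.000434), while SNHG5 turned to -0.0098. The same happened with only genes averaging 50 or more counts tested (SNHG1 0.08, adjusted p = 0.313, and GAS5 -0.46, 0.000222). ZFAS1 lost its call without sgC1 replicate 2 (0.0719), sgC1 replicate 3 (0.106) or sgNTA replicate 2 (0.14), and without the filter (0.112). Under sgPACT-2, the same guide in both lines, 9 of 10 were called (74.7% of all genes), with NEAT1 at -2.71, MALAT1 at -0.96, GAS5 at -0.30 (adjusted p = 0.012) and SNHG5 at -0.03.

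Per kilobase of annotated exon, MALAT1 led in every group, at 533 ± 35 CPM per kilobase (SD, n = 3) in HCC1806 sgC1 and 317 ± 7 in MDA-MB-468 sgNTA. In HCC1806 sgC1 NEAT1 followed at 147 ± 15, then GAS5 at 48.4 ± 4.3, SNHG1 at 34.3 ± 1.4, ZFAS1 at 29.8 ± 1.5, SNHG8 at 28.1 ± 3.7, SNHG15 at 9.36 ± 1.31, SNHG12 at 8.41 ± 0.84, SNHG5 at 3.72 ± 0.13 and EPB41L4A-AS1 at 1.47 ± 0.13. The libraries of ZFAS1 and SNHG8, and those of SNHG15 and SNHG12, overlapped in that order, and the other neighbours did not. In MDA-MB-468 sgNTA the order was MALAT1, SNHG1 (44.9 ± 1.3), GAS5 (43.6 ± 0.4), ZFAS1 (25.1 ± 1.8), NEAT1 (19.2 ± 2.5), SNHG8 (18.2 ± 3.3), SNHG15 (16.8 ± 0.4), SNHG12 (4.58 ± 0.42), SNHG5 (4.39 ± 0.31) and EPB41L4A-AS1 (3.06 ± 0.25). There SNHG1 and GAS5, the run from NEAT1 to SNHG15, and SNHG12 and SNHG5 overlapped with their neighbours. NEAT1 thus stood above all 8 hosts per kilobase in HCC1806 and below 3 of them in MDA-MB-468 sgNTA. The lengths are the union of all annotated exons (3631 bases for GAS5, 22767 for NEAT1), which understates a transcript that uses few of them. At SNHG1 these exons (3756 bases) fill nearly all of the gene (chr11:62851988-62855914). In total RNA, counts of such hosts may therefore include unspliced RNA besides the spliced transcript, and these were not separated, which limits every host value above.

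The snoRNAs inside the hosts could be followed only in part. Of 30 listed, 17 had a row in the table, and 12 of these had 0 counts in all 12 libraries. All 12 lie wholly inside an annotated exon of their host, whereas none of the 5 with counts does. The part of that overlap in the zero counts was not tested. The library protocol fragments RNA and is not described as one for small RNA, so these counts are a limited measure of mature snoRNAs. The snoRNAs of ZFAS1 had the most counts, 883 for SNORD12C and 701 for SNORD12B over the 12 libraries, and are shown from GRCh38 with their C box (TGATGA) and D box (CTGA) in capitals.
SNORD12C, chr20:49278940-49279028, plus strand: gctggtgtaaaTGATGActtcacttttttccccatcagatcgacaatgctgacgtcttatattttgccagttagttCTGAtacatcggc
SNORD12B, chr20:49280319-49280409, plus strand: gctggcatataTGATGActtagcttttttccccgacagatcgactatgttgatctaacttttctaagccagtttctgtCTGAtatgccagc
SNORD12C averaged 4.07 CPM with sgC1 and 3.76 with sgPACT-2 in HCC1806, and 1.42 and 1.71 in MDA-MB-468. SNORD12B averaged 2.85 and 3.77 in HCC1806, and 1.19 and 1.03 in MDA-MB-468. Neither these nor SNORD99 of SNHG12, the 3 with enough counts for the test, changed with depletion in edgeR (0 of 3 in each line, with 0 at an unadjusted p under 0.05 and 0 in DESeq2, which gave no adjusted p for 1 of them in HCC1806). SNORD99, with 208 counts in all, averaged 1.07 and 1.03 CPM in HCC1806. In MDA-MB-468 it was at 0.390, 0.335 and 0.449 CPM with sgNTA and at 0, 0.301 and 0.185 with sgPACT-2, without overlap (13.1% of all genes, either direction). The log2 fold change was -1.27 ± 0.65 (SE, unadjusted p = 0.0677, adjusted p = 0.975, edgeR). That value ranged from -2.08 to -0.69 with 1 library left out and rests on 14.3 counts per control library. All 3 were called lower in MDA-MB-468 under control guides (edgeR, 40.1% of all genes), by log2 fold changes of -1.26 to -1.52. Of their hosts, ZFAS1, which holds the SNORD12 snoRNAs, differed by -0.25, and SNHG12, which holds SNORD99, by -0.88.

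Protein-coding genes start close to some hosts. SLC3A2, a heavy chain of amino acid transporters, starts 188 bases from SNHG1 on the opposite strand. It was at 348, 363 and 369 CPM in MDA-MB-468 with sgNTA and at 484, 446 and 464 with sgPACT-2, without overlap (13.1% of all genes, either direction). The difference was 0.37 ± 0.09 on the log2 scale (SE, adjusted p = 0.195, edgeR). SLC3A2 passed with MDA-MB-468 fitted alone (adjusted p = 0.000261, edgeR), where 323 genes were called in place of 46. It also passed with total counts only (0.0291) and in DESeq2 (0.0192, 0.418% of all genes called). In these 3 fits SNHG1 gave log2 fold changes of 0.0085, 0.043 and -0.0046. SLC3A2 also passed without HCC1806 sgPACT-2 replicate 1 (0.026) or 3 (0.0433). ZNFX1, 248 bases from ZFAS1, gave 0.23 in HCC1806 (adjusted p = 0.277; 0.0447 with total counts only) and -0.17 in MDA-MB-468, and ZBTB37, 800 bases from GAS5, gave 0.022 and -0.095. The kit named in the labels is not described as keeping strand, so reads of GAS5, SNHG12, ZFAS1, EPB41L4A-AS1 and MALAT1 cannot be told apart from those of genes that overlap them on the other strand, such as TRNAU1AP at SNHG12.

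Among 18 other long noncoding snoRNA hosts none passed the test after depletion in either line (edgeR, 2.49% and 0.17% of all genes called). At an unadjusted p under 0.05 were 2 in HCC1806 and 0 in MDA-MB-468 (14.5% and 5.27% of all genes). DESeq2 called 1 and 0 (4.61% and 0.418%). The median log2 fold change of the 18 was -0.17 in HCC1806, below the 0.13 of the 8 described here, and -0.0037 in MDA-MB-468. The smallest p in HCC1806 belonged to SNHG32, at 59.0, 56.0 and 55.4 CPM with sgC1 and 72.4, 64.5 and 74.4 with sgPACT-2 (0.31, adjusted p = 0.114), and to SNHG4 (-0.48, adjusted p = 0.265). With the replicate block both passed (0.0385 and 0.0123), SNHG4 also passed without the filter (0.0347), and SNHG32 also passed in DESeq2 (0.0449), with total counts only (0.0165) and among genes averaging 50 or more counts (0.0285). In MDA-MB-468 SNHG19 gave -0.39 (adjusted p = 0.958) and DANCR -0.26 (0.985).

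Of 32 protein-coding snoRNA hosts, most of them genes of ribosomal proteins and translation factors, 4 fell in HCC1806 (1.32% of all genes fell) and none rose (edgeR, with 6 called in DESeq2). They were ATP5F1B, a subunit of the mitochondrial ATP synthase (-0.42 ± 0.09, SE, adjusted p = 0.0198), SLC25A3, the mitochondrial phosphate carrier (-0.41 ± 0.09, 0.0238), RPL7A (-0.38, 0.0324) and RPSA (-0.41, 0.036), the last a pair of ribosomal protein genes. ATP5F1B stood at 233, 221 and 213 CPM with sgC1 and 170, 175 and 154 with sgPACT-2. In all, 29 of 32 had negative values, with a median of -0.17 against -0.03 over better-counted genes. In MDA-MB-468 0 of 32 were called (edgeR, 0 at an unadjusted p under 0.05 and 0 in DESeq2), and the median was -0.069, with RPL23 at -0.24 and RPL23A at -0.17.

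The sign of all 4 was negative in each of the 20 alternatives, but the calls were not always kept. All 4 passed with the replicate block (0.00269 to 0.00567), in DESeq2 (0.000298 to 0.00384) and without the filter (0.0109 to 0.0236). All 4 were lost with HCC1806 fitted alone (adjusted p = 0.193 to 0.219, edgeR), where 0.315% of genes were called, and with total counts only (0.0527 to 0.126). With 1 library left out, ATP5F1B passed in 11 of 12 fits (-0.46 to -0.37) and SLC25A3 in 10 of 12 (-0.44 to -0.39), while RPL7A and RPSA passed in 4 of 12 each. Without HCC1806 sgC1 replicate 1 all 4 were lost (0.055 to 0.0557). RPL7A and RPSA have processed pseudogenes of nearly the same sequence, so their counts are uncertain, and both were named because they were the rest of the 4, after their values were seen.

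Among 15 TOP mRNAs outside the ribosomal proteins 2 fell in HCC1806 and none rose (edgeR), where 1.32% of all genes fell. In that line 13 of 15 had negative values and 7 had an unadjusted p under 0.05 (14.5% of all genes). DESeq2 called 3 there (4.61% of all genes), EIF4B (0.0385) besides the 2. In MDA-MB-468 0 of 15 were called (edgeR, 0 at an unadjusted p under 0.05 and 0 in DESeq2). EEF1A1, the elongation factor that brings tRNAs to the ribosome, stood at 3004, 3106 and 2794 CPM with sgC1 and 2098, 2265 and 2252 with sgPACT-2 (-0.43 ± 0.09, SE, adjusted p = 0.0183, edgeR). PABPC1, the poly(A)-binding protein, stood at 1433, 1389 and 1429 and at 1096, 1090.5 and 1147 (-0.35 ± 0.09, adjusted p = 0.0396). Both were lost with HCC1806 alone (0.21 and 0.275) and with total counts only (0.0671 and 0.143), and PABPC1 also with DESeq2's size factors in edgeR (0.0523). EEF1A1 was lost without sgC1 replicate 2 (0.0531) and PABPC1 without any 1 of 8 libraries (0.0602 to 0.0863), and EEF1A1 too has many near-identical pseudogenes. The list shares EEF1B2, EEF2, RACK1 and TPT1 with the protein-coding hosts.

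**Figure D4:**
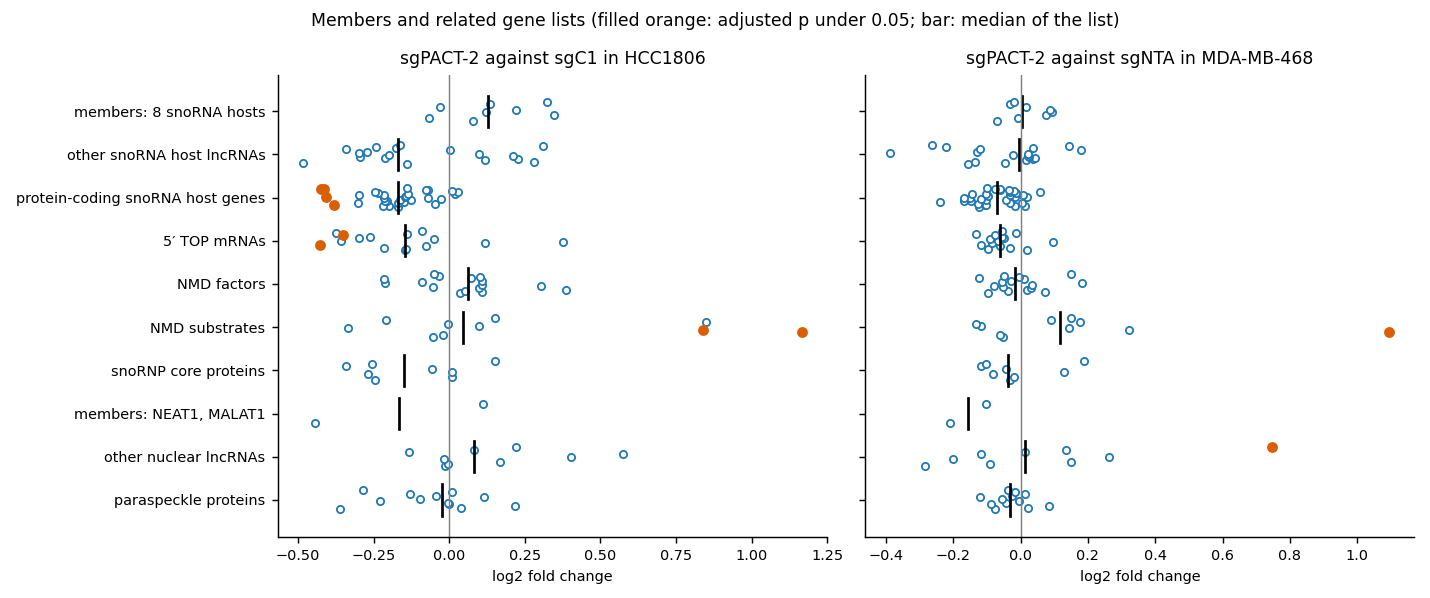
Log2 fold changes (horizontal axes) after depletion in each line for the 8 hosts, NEAT1 with MALAT1, and 8 related gene lists, with a point per gene, filled orange where adjusted p was under 0.05, and a bar at each list's median. In HCC1806 the median of the 8 hosts (0.13) lies above those of the other noncoding hosts and the protein-coding hosts (both -0.17).

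Among 10 transcripts known as substrates of nonsense-mediated decay, 2 rose in HCC1806, where 1.16% of all genes rose (edgeR). In MDA-MB-468 1 rose, where 0.17% of all genes were called in either direction. GADD45A, a stress gene that is also induced at transcription, stood at 18.2, 10.8 and 15.2 CPM with sgC1 and 44.7, 25.5 and 29.6 with sgPACT-2 in HCC1806 (1.17 ± 0.20, SE, adjusted p = 0.0051). In MDA-MB-468 it stood at 32.9, 32.6 and 30.4 with sgNTA and 76.8, 55.4 and 72.8 with sgPACT-2 (1.10 ± 0.19, adjusted p = 0.0216). Its groups did not overlap in either line (16.7% and 13.1% of all genes, either direction). GADD45B, its paralogue, rose in HCC1806 (0.84 ± 0.12, adjusted p = 0.00161) and gave 0.32 in MDA-MB-468 (adjusted p = 0.734), where it passed with that line fitted alone (0.0255). GADD45A missed the threshold with HCC1806 alone (0.0703), and in MDA-MB-468 without any 1 of 5 libraries of that line (0.121 to 0.177). The other 8 of the list were not called in either line, and its medians were 0.047 and 0.12. TBL2 pointed the other way in HCC1806, at 45.9, 46.4 and 40.6 CPM with sgC1 and 34.7, 37.4 and 33.4 with sgPACT-2 (-0.33, adjusted p = 0.131, edgeR), and was called lower in DESeq2 (0.0467).

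None of 16 factors of nonsense-mediated decay passed the test in either line (edgeR, 2.49% and 0.17% of all genes called, and 0 in DESeq2). At an unadjusted p under 0.05 were 2 in HCC1806 and 0 in MDA-MB-468 (14.5% and 5.27% of all genes). UPF3B, which links decay to the exon junction, gave 0.39 (adjusted p = 0.122; 0.0417 with total counts only) in HCC1806, and SMG6, the decay endonuclease, 0.30 (0.189). In MDA-MB-468 the exonuclease XRN1 gave 0.15 and RBM8A, of the exon junction complex, -0.12. The 8 core proteins of snoRNA particles, which bind box C/D or box H/ACA snoRNAs, also gave 0 calls in each line (edgeR and DESeq2, with 2 and 0 at an unadjusted p under 0.05). NHP2 gave -0.34 and fibrillarin (FBL) -0.27 in HCC1806, with adjusted p of 0.253 and 0.305, and NHP2 passed with the replicate block (0.0412). In MDA-MB-468 NOP58 gave 0.13 and NHP2 -0.12.

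For the nuclear side, 0 of 12 paraspeckle proteins were called in either line (edgeR, 2.49% and 0.17% of all genes). At an unadjusted p under 0.05 were 2 in HCC1806 and 0 in MDA-MB-468 (14.5% and 5.27% of all genes), and DESeq2 called 1 and 0. NONO, an essential core protein of paraspeckles, stood at 235, 201 and 207 CPM with sgC1 and 191, 159 and 151 with sgPACT-2 in HCC1806 (-0.36 ± 0.10, SE, adjusted p = 0.0819, edgeR). Its groups did not overlap, as in 8.17% of all genes for that direction. NONO passed with the replicate block (0.00693, where 7.2% of all genes were called), in DESeq2 (0.0293, 4.61%) and without the filter (0.0448, 3.04%). Of the 12 proteins, 4 had positive values in HCC1806, and the median was -0.025. Without sgPACT-2 replicate 1 of HCC1806, the number of all genes called in that line rose from 672 to 1792. In that fit NONO (0.00351), SNHG4 (0.00188), NHP2 (0.0125), FBL (0.0237), UPF3B (0.0314) and HOTAIR (0.0345), from several of the lists, passed. NUDT21, a cleavage factor subunit, gave -0.29 (0.202) in HCC1806, and in MDA-MB-468 DAZAP1 gave -0.12 and NONO -0.077.

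Of 10 other nuclear long noncoding RNAs 9 were tested, with 0 calls in HCC1806 (edgeR, 2.49% of all genes). In that line 1 had an unadjusted p under 0.05 (14.5% of all genes) and DESeq2 called 0 (4.61%). In MDA-MB-468 1 was called (edgeR, 0.17% of all genes). PVT1, a long noncoding RNA next to the MYC gene, stood there at 14.9, 13.8 and 13.1 CPM with sgNTA and 23.5, 21.7 and 25.0 with sgPACT-2 (0.75 ± 0.12, SE, adjusted p = 0.00861, edgeR). It was lost without any 1 of 4 MDA-MB-468 libraries (0.0549 to 0.0961). In HCC1806 PVT1 gave 0.22 (adjusted p = 0.385) and HOTAIR 0.57 (0.147), and in MDA-MB-468 JPX gave -0.20.

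Co-variation among the 10 was weak. With values centred within each line, the 28 pairs of hosts had a median Pearson r of 0.35 over the 12 libraries, from -0.44 to 0.76, and the 16 pairs of a host with NEAT1 or MALAT1 had a median of -0.063. NEAT1 and MALAT1 had an r of 0.36. Among 15908 other genes averaging 50 or more counts, those most like the mean of the hosts were YTHDF1 (r = 0.95), TAF5L (0.94), BCL2L1 (0.94), ASB6 (0.93) and PALD1 (0.93). Those most like NEAT1 were PCDHGA1 (0.88), GUSB (0.87) and GRTP1-AS1 (0.85), and those most like MALAT1 were AL133243.3 (0.94), PITRM1-AS1 (0.94) and C5orf66 (0.91). The libraries share their scaling, their group and their replicate number, and values this high are the extremes of many genes over few libraries.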

How the data were processed

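RNA from 12 libraries, 3 in each of 4 groups (HCC1806 or MDA-MB-468 with a control guide or sgPACT-2), was analysed from the deposited table of raw counts per gene. The submitters' processing notes name Trimmomatic 0.36, STAR 2.5.2b, featureCounts, Subread 1.5.2 and GRCh38. The annotation release and strand setting are not given in the sources used here. Rows without a gene name held 0.0284% of counts, and 56898 of 57500 gene IDs were in GENCODE 29, which gave positions and exon lengths.

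Counts were fitted with edgeR 4.0.16 in R 4.3.3 (filterByExpr, TMM, quasi-likelihood F test, 1 coefficient per group, two-sided). Log2 fold changes have SE and 95% intervals from the fit. The intervals use its total degrees of freedom, the 8 residual ones plus those gained by sharing the spread across genes. Called means a Benjamini-Hochberg adjusted p under 0.05 over 27029 genes. Levels are CPM with TMM factors, and log2 CPM used a prior count of 2. DESeq2 1.42.0, limma 3.58.1 (loaded by edgeR), other scalings and filters, each line alone, a replicate block and leaving out each library were alternatives. The contrast of the lines under sgPACT-2 was added after seeing the data. The tests were checked on simulated data.

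Same-numbered libraries deviated together in HCC1806 (r of 0.48, 0.29 and 0.15 between control and depleted library). The other pairs there ran from -0.46 to 0.35, the highest for control 2 with depleted 3. In MDA-MB-468 the same-numbered r were 0.12, 0.08 and 0.11, and the other pairs ran from -0.11 to 0.0037. The main fit used no pairs, and the replicate block had replicate terms in both lines. No libraries were duplicates (chi-square over degrees of freedom of 7.35 to 46.1 within groups). The 10 transcripts and all gene lists were chosen with earlier results of these data known. Named genes were the 10, the 2 of each list with the smallest p in each line, protein-coding genes starting within 5 kb, and the genes most correlated over libraries. Figures were drawn with matplotlib.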

Additional observations from a re-analysis of the deposited data

How the results depend on the processing

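Scaling by total counts only moved all genes together, in HCC1806 from a median of -0.026 to 0.097, and so turned 10 values near 0, of which 9 kept their sign relative to that median (all but EPB41L4A-AS1, at 0.00016): in HCC1806 SNHG1 to 0.057, SNHG15 to 0.090, SNORD12C to 0.0045 and SLC3A2 to 0.099, in MDA-MB-468 SNHG1 to 0.043, ZFAS1 to 0.019 and EPB41L4A-AS1 to 0.026, in the difference between lines SNHG1 to -0.014 and SNHG15 to -0.029, and between lines under control guides SNHG5 to -0.0098. Scaling without mitochondrial genes turned SNHG1 in MDA-MB-468 to 0.0074. Testing only genes averaging 50 or more counts turned SNHG15 (0.00028) and SLC3A2 (0.0084) in HCC1806, SNHG1 (0.00011) in MDA-MB-468 and SNHG5 between lines (-0.072), and called 13022 genes between lines in place of 20068. With the libraries under sgPACT-2, SNHG5 was -0.032 between lines.

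The number of all genes called moved more than that of the 10. In HCC1806 it was 672, and 1351 with no filter, 74 in the line alone, 160 at adjusted p under 0.01, 1245 in DESeq2 and 301 to 1792 without 1 library (sgC1 replicate 1 and sgPACT-2 replicate 1). In MDA-MB-468 it was 46, and 143, 323, 22, 113 and 19 to 98 (without its sgPACT-2 replicate 3 and without HCC1806 sgPACT-2 replicate 1), with SNHG1 at 0.0085 in the line alone. For the difference between lines it was 33, and 275 with no filter, 9 at adjusted p under 0.01, 178 in DESeq2 and 9 to 168. Of the 10, 1 (NEAT1) was called in HCC1806 with no filter.

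With the replicate block 1947 genes were called in HCC1806, 102 in MDA-MB-468 and 271 for the difference between lines, 1 of the 10 (NEAT1) was called in HCC1806, and ZBTB37 turned to -0.0036. Among the 10 no other call changed with the block.

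Leaving out 1 library turned values near 0. In HCC1806 GAS5 ranged from -0.0096 to 0.14, SNHG15 from -0.14 to 0.10, SLC3A2 from -0.070 to 0.046, SNORD12C from -0.44 to 0.13 and ZBTB37 from -0.20 to 0.15. In MDA-MB-468 EPB41L4A-AS1 ranged from -0.094 to 0.091, MALAT1 from -0.27 to 0.0053, SNHG1 from -0.028 to 0.013, SNHG15 from -0.081 to 0.074, SNHG8 from -0.053 to 0.24 and ZFAS1 from -0.089 to 0.0080. For the difference between lines NEAT1 ranged from -0.0043 (without MDA-MB-468 sgPACT-2 replicate 2) to 0.36, SNHG12 from -0.21 to 0.046, SNHG15 from -0.074 to 0.16 and SNHG8 from -0.17 to 0.12. Hosts minus nuclear transcripts, on the log2 scale, moved with NEAT1 alone as reference to -6.56, -5.98, -3.54 and -3.28, and with MALAT1 alone to -7.05, -7.03, -6.22 and -6.09, for the control and depleted libraries of HCC1806 and then MDA-MB-468.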
